A study of Mus musculus with 18 samples.

Results

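The 6 genes described here were chosen by name: the 4 myogenic regulatory factors Myog (myogenin), Myod1, Myf5, and Myf6 (MRF4), and 2 genes of the muscle precursor lineage, Pax7 and Cdh15 (M-cadherin). They are 6 of the 35150 genes for which transcript levels were summed. Transcripts were sequenced in punches of the rostral whisker pad, skin and muscle together, from 9 adult mice, 3 at each of days 1, 3, and 7 after surgery, which gives 18 samples. On the right side of the face 2 branches of the facial nerve, the buccal and the superior marginal, were cut (denervated), and on the left side the skin was opened and reclosed over an intact nerve (sham). Right and left therefore cannot be told apart from lesion and sham, and the days are different mice. The strain and genotype of these mice were not given in the sources used here. The study used both sexes, and the sex of each of these 9 mice was not given. A biopsy holds whole skin with its muscle, so that fewer cells of a type and less RNA per cell cannot be told apart.

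The myogenic regulatory factors are basic helix-loop-helix proteins that pair with E proteins and bind E-boxes, the sequence CANNTG, in the control regions of muscle genes. Myf5 and Myod1 commit precursors to the muscle lineage, Myog drives their terminal differentiation, and Myf6 is the factor most abundant in adult muscle fibers. Pax7 marks the quiescent satellite cells that lie beside muscle fibers, and Cdh15 is a cadherin of satellite cells and myoblasts. Loss of innervation is a known inducer of Myog and of acetylcholine receptor genes in muscle fibers.

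All positions are those of GRCm38. Myog lies on chromosome 1 from 134289989 to 134292548 on the plus strand, Myod1 on chromosome 7 from 46376474 to 46379099 on the plus strand, and Cdh15 on chromosome 8 from 122847966 to 122867397 on the plus strand. Pax7 lies on chromosome 4 from 139737062 to 139833528 on the minus strand. Myf6 (107492853 to 107494737) and Myf5 (107482908 to 107486134) are neighbors on the minus strand of chromosome 10, with 6718 bases between them. Each gene has 1 transcript in the deposited table except Pax7, which has 2, and Pax7-202 was listed at 0 in all 18 samples.

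Of the 6 genes, 4 have an entry in the RefSeq promoter table (GRCm38.p6), and the 250 bases before the RefSeq start are shown for the factor with the highest denervated levels at day 3 and for the factor with the lowest levels. E-boxes, found by a search for CANNTG (its own reverse complement, so that both strands are covered), are in capitals.

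Myog, chr1:134289754-134290003, plus strand: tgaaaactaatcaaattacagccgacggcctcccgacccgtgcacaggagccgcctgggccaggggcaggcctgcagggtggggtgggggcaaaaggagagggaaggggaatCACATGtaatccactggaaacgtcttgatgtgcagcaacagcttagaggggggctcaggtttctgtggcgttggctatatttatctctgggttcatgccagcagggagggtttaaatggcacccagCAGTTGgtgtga
Myf5, chr10:107486135-107486384, minus strand: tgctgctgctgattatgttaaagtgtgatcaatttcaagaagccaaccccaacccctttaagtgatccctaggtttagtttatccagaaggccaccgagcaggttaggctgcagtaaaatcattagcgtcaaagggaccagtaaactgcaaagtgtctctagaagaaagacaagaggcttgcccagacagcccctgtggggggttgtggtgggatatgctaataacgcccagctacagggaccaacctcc

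The Myog stretch holds 2 E-boxes, CACATG and CAGTTG, which begin 138 and 12 bases before the RefSeq start. The GENCODE start of Myog lies 15 bases before the RefSeq start, so the last 15 bases belong to the GENCODE transcript. The Myf5 stretch holds 0 E-boxes, the Pax7 window 0, and the Cdh15 window 3, where the RefSeq start of Cdh15 lies 408 bases after the GENCODE start. Over 32851 promoters of the same length, 66.2% held at least 1 E-box, 31.8% at least 2, and 12.2% at least 3, with a median of 1. These matches are descriptions of the letters and not of bound sites.

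Levels are given in TPM, a measure of transcript abundance per transcript length, which was normalized between samples by the authors. Sample sums ran from 833186 to 1143839. The depth was estimated at 10200000 to 31800000 reads per sample (median 14100000), which covers counting error only. Muscle content differed between biopsies: the level of the muscle fiber markers, relative to its mean over samples, was 0.25 on the sham side and 0.366 on the denervated side of day 1 mouse 1, 0.78 to 1.33 in the other 4 samples of day 1, 0.811 to 1.1 at day 3, and 1.42 to 1.71 at day 7. The day 1 mouse 1 biopsies stand apart from the other 16 as poor in muscle RNA, and the comparisons between days below run along with this measure.

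Myog, the factor of terminal differentiation, had the largest ratio between the mean levels of the sides among the 6 genes at each day. At day 1 its sham levels were 0.49, 2.14, and 1.51 TPM in mice 1, 2, and 3, and its denervated levels were 16.6, 51.5, and 26.4 TPM. At day 3 the sham levels were 7.14, 3.38, and 3.45 TPM, and the denervated levels 178, 200, and 166 TPM. At day 7 the sham levels were 6.72, 3.71, and 3.25 TPM, and the denervated levels 89.0, 104, and 106 TPM. Every denervated sample lay above every sham sample of the same day, and the lowest denervated level (16.6 TPM) lay above the highest sham level of any day (7.14 TPM). The share of all genes whose sides did not overlap is not given here. Absence of overlap, here and for the genes below, is therefore only a description of these samples. The ratio of the mean levels, denervated over sham, was 22.8 at day 1, 39.0 at day 3, and 21.9 at day 7.

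Myod1, a factor of lineage commitment, also had no overlap between the sides at any day. Its sham levels at day 1 were 0.617, 1.81, and 3.52 TPM, and its denervated levels 14.7, 20.1, and 24.4 TPM. At day 3 the sham levels were 3.58, 5.58, and 4.58 TPM, and the denervated levels 42.8, 117, and 77.7 TPM. At day 7 they were 10.8, 9.60, and 6.38 TPM in sham and 22.8, 28.6, and 25.2 TPM in denervated whisker pads. The ratio of the means was 9.95 at day 1, 17.3 at day 3, and 2.86 at day 7. At day 7 the sham mean, 8.93 ± 2.29 TPM (SD, n = 3), was higher than the 4.58 ± 0.996 TPM of day 3, while the denervated mean was 25.6 ± 2.91 TPM against 79.3 ± 37.4 TPM.

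Myf6, the factor of mature fibers, was the most abundant of the 6 genes in every sham group. Its sham levels at day 1 were 9.77, 34.4, and 49.2 TPM, and its denervated levels 40.7, 198, and 137 TPM. The sides overlapped at day 1, where mouse 1 was low on both sides and was also low in muscle fiber markers. At day 3 the sham levels were 39.3, 28.9, and 36.0 TPM, and the denervated levels 142, 121, and 155 TPM. At day 7 they were 38.9, 41.8, and 42.2 TPM in sham and 190, 223, and 224 TPM in denervated whisker pads. The sides did not overlap at days 3 and 7, and the ratio of the means was 4.03, 4.02, and 5.19 at days 1, 3, and 7.

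Cdh15 was higher on the denervated side in all 3 mice at day 3 and at day 7, with a call at day 3 only in the tests by day, and showed no common direction at day 1. At day 1 its sham levels were 0.575, 2.33, and 3.21 TPM, and its denervated levels 1.08, 1.60, and 1.45 TPM, so that only mouse 1 was higher on the denervated side. At day 3 the sham levels were 2.21, 1.87, and 2.04 TPM, and the denervated levels 8.85, 16.9, and 10.2 TPM. At day 7 they were 3.97, 3.00, and 2.11 TPM in sham and 5.98, 6.28, and 6.77 TPM in denervated whisker pads. The sides did not overlap at days 3 and 7, with ratios of the means of 5.86 and 2.09.

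Myf5 ran from 0.273 to 1.53 TPM over the 18 samples, at about 8 to 61 reads. Its sham levels were 0.273, 1.08, and 0.376 TPM at day 1, 0.746, 0.846, and 0.507 TPM at day 3, and 0.693, 0.846, and 0.884 TPM at day 7. Its denervated levels were 0.367, 1.02, and 0.750 TPM at day 1, 1.13, 0.887, and 1.48 TPM at day 3, and 0.831, 1.15, and 1.53 TPM at day 7. The sides overlapped at days 1 and 7 and did not at day 3, where mouse 2 was at 0.846 and 0.887 TPM, with 1 read worth 0.0172 to 0.0607 TPM. This lineage factor thus had the lowest levels of the 4 factors in all 6 groups, although its neighbor Myf6 had the highest in 5 of them.

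Pax7, the transcription factor of quiescent satellite cells, ran from 0.0463 to 0.285 TPM over all 18 samples, at about 4 to 36 reads. Its sham levels were 0.0463, 0.139, and 0.178 TPM at day 1, 0.278, 0.127, and 0.172 TPM at day 3, and 0.264, 0.10, and 0.133 TPM at day 7. Its denervated levels were 0.0905, 0.251, and 0.0893 TPM at day 1, 0.142, 0.241, and 0.285 TPM at day 3, and 0.105, 0.246, and 0.268 TPM at day 7. The sides overlapped at all 3 days. With 1 read worth 0.00572 to 0.0202 TPM, each value rests on few reads, and what difference they could show was not tested.

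**Figure D1:**
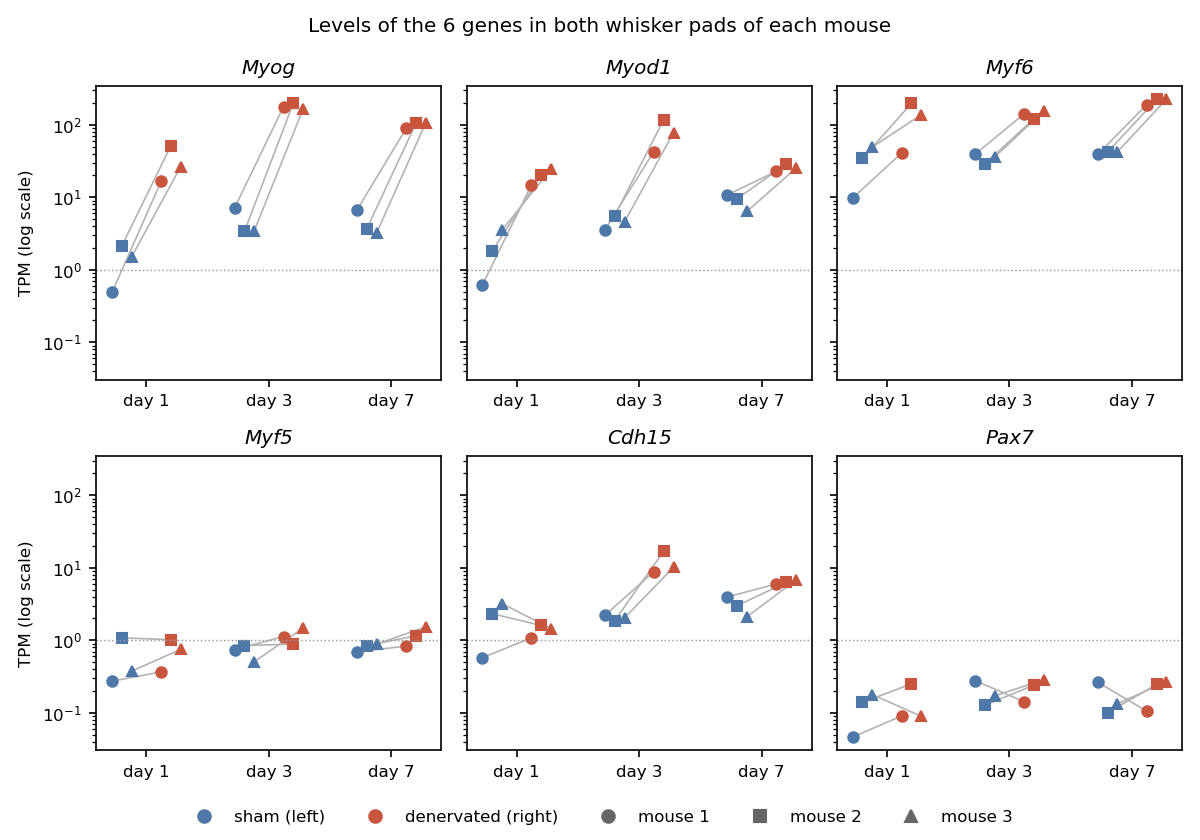
TPM (log scale) of each of the 6 genes at days 1, 3, and 7, with sham samples in blue, denervated samples in red, a line joining the sides of a mouse, and a dotted line at 1 TPM. The lines of Myog, Myod1, and Myf6 rise in all 9 mice, the Cdh15 lines rise in all mice of days 3 and 7, and the highest Pax7 point is at 0.285 TPM.

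At each day the sides were compared with limma on log2(TPM + 0.5), 3 samples against 3, with Benjamini-Hochberg adjustment over all genes tested and a threshold of 0.05. A gene needed at least 1 TPM in at least 47% of the samples, which 4 of the 6 genes met at each day. Myf5 had 1 TPM or more in 2 of 6 samples at each day and Pax7 in 0, so neither was tested. Myog, Myod1, and Cdh15 met the filter in 5 of 6 samples at day 1 and in 6 of 6 at days 3 and 7, and Myf6 in 6 of 6 throughout, so none of them entered through 1 side alone. All differences below are denervated minus sham on the log2(TPM + 0.5) scale, which understates the change of low genes.

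At day 3 all 4 tested genes were higher on the denervated side, where 217 of 14943 genes tested (1.45%) were called in either direction. The log2 difference was 5.21 (SE 0.27) for Myog with an adjusted p of 0.00089, and 3.88 (SE 0.36) for Myod1 with an adjusted p of 0.0072. It was 2.00 (SE 0.15) for Myf6 with an adjusted p of 0.0036, and 2.24 (SE 0.24) for Cdh15 with an adjusted p of 0.012. Without mouse 2 or without mouse 3 the number called was 0, with the same directions, and without mouse 1 it was 3. Among all genes, limma called 7 without mouse 2 and 0 without mouse 3, and the count without mouse 1 is not given here. These were fits of 4 samples, in which Myog was at 4.98 without mouse 2 and 5.12 without mouse 3.

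At day 7, 3 of the 4 tested genes were called, where 230 of 15081 genes (1.53%) were. The log2 difference was 4.37 (SE 0.25) for Myog and 2.36 (SE 0.11) for Myf6, both with an adjusted p of 0.0021, and 1.49 (SE 0.21) for Myod1 with an adjusted p of 0.020. Cdh15 was at 0.99 (SE 0.22) with an adjusted p of 0.10, higher in 3 of 3 mice. The number called was 1 without mouse 1, 0 without mouse 2, and 2 without mouse 3. Among all genes, limma called 1 (Myog) without mouse 1 and 5 without mouse 2, and the count without mouse 3 is not given here.

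At day 1 none of the 4 tested genes was called by limma, as 0 of 14776 genes (0.0%) were. At an unadjusted p under 0.05 there were 634 genes, Myog, Myod1, and Myf6 among them. The log2 difference was 4.05 (SE 0.51, adjusted p 0.28) for Myog, 3.18 (SE 0.47, adjusted p 0.43) for Myod1, 2.00 (SE 0.78, adjusted p 1.00) for Myf6, and -0.27 (SE 0.47, adjusted p 1.00) for Cdh15. In a fit of all 18 samples, which share 1 estimate of the spread, 29 of 14757 genes (0.197%) were called at day 1. Myog, at an adjusted p of 0.00096, and Myod1, at 0.0033, were among them, and Myf6, at 0.29, was not. In this same fit Myf6 lost its call at day 3 (adjusted p 0.069) and Myod1 lost its call at day 7 (adjusted p 0.098). A block for each mouse in this fit was an alternative added after the data were seen. With that block Myf6 was called at day 1 as well, where 43 of all genes were. Myf6 at day 3 and Myod1 at day 7 kept their calls with it, and the counts of all genes at those days are not given here.

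Over all days, with a term for the day, 457 of 14757 genes (3.1%) were called, and Myog, Myod1, and Myf6 were called with log2 differences of 4.54, 2.85, and 2.12 and adjusted p-values of 3.7e-08, 0.00013, and 0.00044. Cdh15 was at 0.99 with an adjusted p of 0.11, and at 1.23 with 0.030 without day 1 mouse 3.

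Because both sides of a mouse were sampled, the differences were also taken within each mouse, and their mean over 9 mice was put to an exact permutation test that flips signs, two-sided, for which 0.0039 is the smallest p possible (0.25 for 3 mice). Myog was higher on the denervated side in 9 of 9 mice, by 4.54 ± 0.70 (SD, n = 9 mice) in log2, Myod1 in 9 of 9 by 2.85 ± 1.14, and Myf6 in 9 of 9 by 2.12 ± 0.33, each with a raw exact permutation p of 0.0039. Cdh15 was higher in 7 of 9 by 0.99 ± 1.21 (exact permutation p = 0.039), in 1 of 3 mice at day 1 and in 3 of 3 at days 3 and 7. Leaving out any 1 of 7 mice, all but day 1 mice 2 and 3, took its exact permutation p to between 0.0547 and 0.0781. Myf5 was higher in 8 of 9 mice by 0.34 ± 0.31 (exact permutation p = 0.012), and Pax7 in 6 of 9 by 0.07 ± 0.26 (exact permutation p = 0.45). These 6 p-values are unadjusted.

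The spread between mice differed from gene to gene. For Myf6 the 3 mice of day 7 lay at 2.27, 2.40, and 2.40 and those of day 1 at 2.01, 2.51, and 1.47. For Myog mouse 1 was the lowest of day 3 at 4.55 and the lowest of day 7 at 3.63, where the other mice were at 5.40 to 5.69 and at 4.64 to 4.83. Mouse numbers do not link animals across days.

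**Figure D2:**
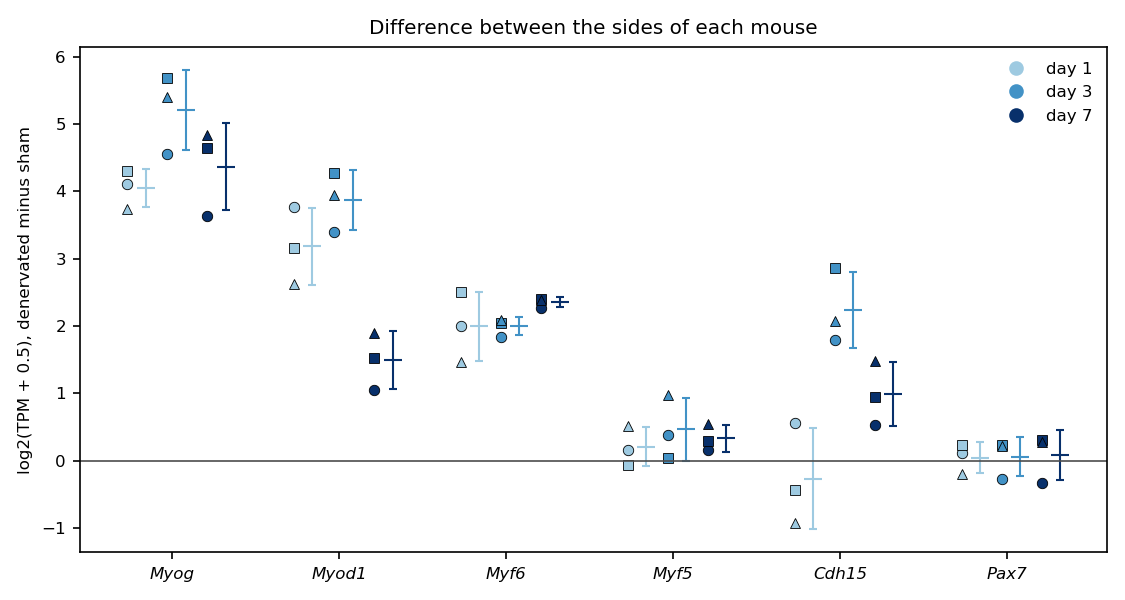
Denervated minus sham difference in log2(TPM + 0.5) for each mouse (circle, square, and triangle for mice 1, 2, and 3 of a day), by gene and day, with the mean and SD of 3 mice to the right of the points. Myog lies between 3.63 and 5.69 in all 9 mice, the Myod1 points of day 7 lie below those of days 1 and 3, and Cdh15 straddles 0 at day 1 only.

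Whether the difference between the sides changed with the day was tested as an interaction in the fit of all 18 samples. None of the 4 genes was called. Between days 1 and 3, 18 of 14757 genes (0.122%) were called, and 1360 had an unadjusted p under 0.05. Cdh15, with a log2 difference that was 2.51 larger at day 3, had an adjusted p of 0.075. It was the only one of the 4 genes with an unadjusted p under 0.05. Without day 1 mouse 1, the mouse poor in muscle RNA, the value for Cdh15 was 2.92 with an adjusted p of 0.0033, where 148 genes were called. Between days 1 and 7, 24 genes (0.163%) were called, and 1054 had an unadjusted p under 0.05, of the 4 genes Cdh15 and Myod1. Between days 3 and 7 limma called 0 genes (0.0%) and 1013 had an unadjusted p under 0.05. Myod1, whose difference was 2.38 smaller at day 7 in log2, had an unadjusted p of 0.00091 and an adjusted p of 0.63.

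Along the denervated side, levels of 3 genes rose from day 1 to day 3, where 1522 of 14757 genes (10.3%) were called. The log2 change was 2.69 (SE 0.36, adjusted p 0.00061) for Cdh15, 2.65 (SE 0.41, adjusted p 0.0017) for Myog, and 1.89 (SE 0.41, adjusted p 0.011) for Myod1. Myf6 was at 0.42 with an adjusted p of 0.65. The Myod1 call was lost without day 3 mouse 2 (1.55, adjusted p 0.073) and without day 3 mouse 3 (1.85, adjusted p 0.050). Rescaled to the muscle fiber markers, Myod1 was at 1.29 with an adjusted p of 0.25, and Myf6 turned to -0.20.

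From day 3 to day 7 on the denervated side none of the 4 genes was called, where 44 genes (0.298%) were. The log2 change was -1.50 for Myod1 (adjusted p 0.16), -0.86 for Myog (adjusted p 0.41), -0.81 for Cdh15 (adjusted p 0.37), and 0.61 for Myf6 (adjusted p 0.68). Myod1 and Cdh15 had an unadjusted p under 0.05, as 1830 of 14757 genes did, and Myod1 was called without day 1 mouse 1, where 220 genes were. From day 1 to day 7, a comparison added after the data were seen in which 3074 genes (20.8%) were called, Cdh15 rose by 1.87 (adjusted p 0.0031) and Myog by 1.80 (adjusted p 0.0080). Rescaled to the muscle fiber markers, these values were 0.73 and 0.45 and were not called, where 8601 of all genes were.

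The sham side, whose skin was also opened, was compared between days in the same way. From day 1 to day 3 limma called 0 of 14757 genes (0.0%), with 1984 at an unadjusted p under 0.05. Myog, at 1.49 in log2 (adjusted p 0.14), and Myod1 were among the latter. From day 3 to day 7 it again called 0 genes (0.0%), with 1938 at an unadjusted p under 0.05, of which Myod1 was 1. From day 1 to day 7, the comparison added after the data were seen, 144 genes (0.976%) were called, and Myod1 rose by 2.08 (SE 0.41, adjusted p 0.037). Its sham levels did not overlap between days, at 0.617 to 3.52, 3.58 to 5.58, and 6.38 to 10.8 TPM for days 1, 3, and 7. The call was lost without any 1 of 6 mice (day 1 mice 1 and 2, day 3 mouse 3, and each mouse of day 7), and with rescaling to the muscle fiber markers, where the value was 1.11. Without each of those mice 0 to 70 of all genes were called, and with the rescaling 58 were.

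The order of the levels differed between the sides. In the sham whisker pads Myf6 led at each day, at 31.1 ± 19.9, 34.7 ± 5.28, and 41.0 ± 1.79 TPM (SD, n = 3), with no overlap with the next gene. Myod1, Myog, and Cdh15 followed, with neighbors that overlapped except Myod1 over Cdh15 at day 3, and Myog also overlapped Myf5 at day 1. Myf5 and, below it, Pax7 had the lowest levels in every group, without overlap between them. In the denervated whisker pads of day 3 Myog came first at 181 ± 17.1 TPM (SD, n = 3), above Myf6 at 140 ± 17.3 and Myod1 at 79.3 ± 37.4 TPM, with no overlap between neighbors. At day 7 Myf6 came first again at 212 ± 19.6 TPM, above Myog at 99.9 ± 9.51 TPM.

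Of the summed TPM of the 4 factors, Myf6 made up 87.2% to 90.1% in the sham samples of day 1, 74.7% to 80.8% at day 3, and 68.1% to 80.0% at day 7. In the denervated samples it made up 56.3% to 73.1%, 27.6% to 39.0%, and 62.5% to 62.8%. The share of Myog in denervated samples was 14% to 22.9% at day 1, 41.4% to 49.0% at day 3, and 29.2% to 29.8% at day 7. The share of Myod1 was 11.7% to 26.7% at day 3 and 7.1% to 8.0% at day 7 on the denervated side, against 12.1% to 18.9% at day 7 on the sham side. The sum of the 4 factors was 11.1 to 57.1 TPM over the sham samples and 72.4 to 439 TPM over the denervated samples.

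The ratio of the Myog level to the Myod1 level was higher on the denervated side in 9 of 9 mice, by a factor of 1.42 to 9.46 (median 2.81). It was 0.386 to 0.621 in the sham samples of day 7 and 3.65 to 4.21 in the denervated samples of day 7. This ratio is within a sample and does not depend on the scaling between samples. The lowest factor, 1.42 in day 1 mouse 1, rests on about 10 Myog reads and 16 Myod1 reads on the sham side.

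**Figure D3:**
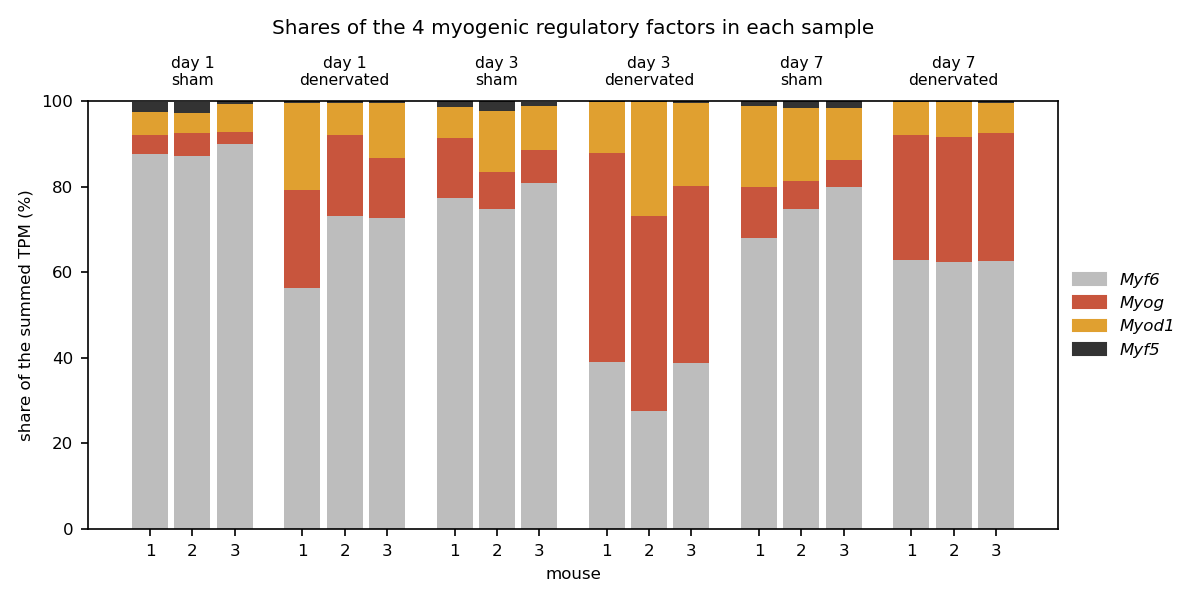
Share of each of the 4 factors in their summed TPM (%), by mouse, for the sham and denervated groups of days 1, 3, and 7. Myf6 (grey) fills at least 68.1% of each sham bar, and Myog (red) fills 41.4% to 49.0% of the denervated bars of day 3.

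The other genes of the pathway were taken as whole lists. The E proteins Tcf3, Tcf4, and Tcf12, the partners of the factors, were all tested, and none of the 3 was called at any day, with log2 differences from -0.34 to 0.20. Of the 13 inhibitors, among them the Id proteins, which bind E proteins without binding DNA, none was called at any day, and their median was 0.01, -0.07, and 0.05 at days 1, 3, and 7. The median over all genes tested was 0.01, -0.02, and 0.04.

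Of the upstream regulators, 18 of 21 were tested at days 3 and 7, and 4 were called at day 3, 2 in each direction. Hdac4, a class II histone deacetylase, rose from 8.52 ± 0.961 to 21.1 ± 3.43 TPM (SD, n = 3) at day 3, by 1.25 in log2 (adjusted p 0.017), and by 1.16 at day 7 (adjusted p 0.0089). Mef2a, a MADS-box factor that acts with the myogenic factors, rose by 1.28 at day 3 (adjusted p 0.017) and by 0.86 at day 7 (adjusted p 0.024). The related deacetylase Hdac5 fell by 0.61 at day 3 (adjusted p 0.039) and was at -0.41 at day 7 without a call. Hdac9, the other gene called lower at day 3, was at 2.29 to 3.24 TPM in sham and 0.597 to 0.785 TPM in denervated samples, so it met the filter through the sham side alone and its direction was fixed by the filter.

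Of the genes for differentiation and fusion, 21 of 23 were tested at days 3 and 7 and 17 at day 1. At an adjusted p under 0.05, 8 were called higher at day 3, 9 were called higher at day 7, and 0 were called lower at either day. Without a call, 5 of 21 at day 3 and 3 of 21 at day 7 had a lower value. The lowest was Actc1, at -2.57 at day 3 (adjusted p 0.28) and -1.98 at day 7 (adjusted p 0.077). None of 17 was called by limma at day 1. Of the 8 at day 3, 4 (Chrng, Mymk, Musk, and Mymx) had no sham sample at 1 TPM and entered the test through the denervated side alone, as did Mymk at day 7, so their direction was fixed by the filter. This leaves 4 called at day 3 (Chrna1, Chrnb1, Chrnd, and Dok7, without the fusion genes Mymk and Mymx) and 8 at day 7, all higher. Among them the acetylcholine receptor subunits Chrnd and Chrna1 rose by 3.79 (adjusted p 0.012) and by 3.67 (adjusted p 0.0040) at day 3, and by 3.88 and 3.18 at day 7. Chrng, the fetal gamma subunit of the receptor, was at 0.274 to 0.449 TPM in sham and 23.0 to 61.8 TPM in denervated samples at day 3. At day 7 it was at 0.181 to 1.92 and 23.9 to 49.6 TPM, a rise of 5.16 (adjusted p 0.0078). Mymk, myomaker, a membrane protein of myoblast fusion, was at 0.0858 to 0.145 TPM in sham and 5.71 to 26.6 TPM in denervated samples at day 3. The list's median over the genes tested, those entered through 1 side included, was -0.02 at day 1, 0.55 at day 3, and 0.98 at day 7.

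Of the further satellite cell markers, 19 of 21 were tested at days 3 and 7, and 1 was called at day 3 and 2 at day 7, all higher. Ncam1, a neural cell adhesion molecule found on satellite cells and also on denervated muscle fibers, was at 7.66 to 12.2 TPM in sham and 28.3 to 53.7 TPM in denervated samples at day 3, a rise of 2.03 (adjusted p 0.024). At day 7 it rose by 3.66 (adjusted p 0.015), and Cdon, a receptor that promotes myogenic differentiation, rose by 1.08 (adjusted p 0.042). The median of the list was -0.06, 0.19, and 0.24 at days 1, 3, and 7. Of the 12 proliferation genes none was called at any day. On the denervated side 11 of 12 were higher at day 1 (median 0.14), 11 of 12 lower at day 3 (median -0.19), and 10 of 12 lower at day 7 (median -0.12). The share of all genes in each direction is not given here, so these counts only describe the list. Its summed level overlapped between the sides at each day. It was 242 to 353 TPM in sham and 280 to 358 TPM in denervated samples at day 1, 201 to 344 and 230 to 276 TPM at day 3, and 196 to 369 and 263 to 271 TPM at day 7.

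**Figure D4:**
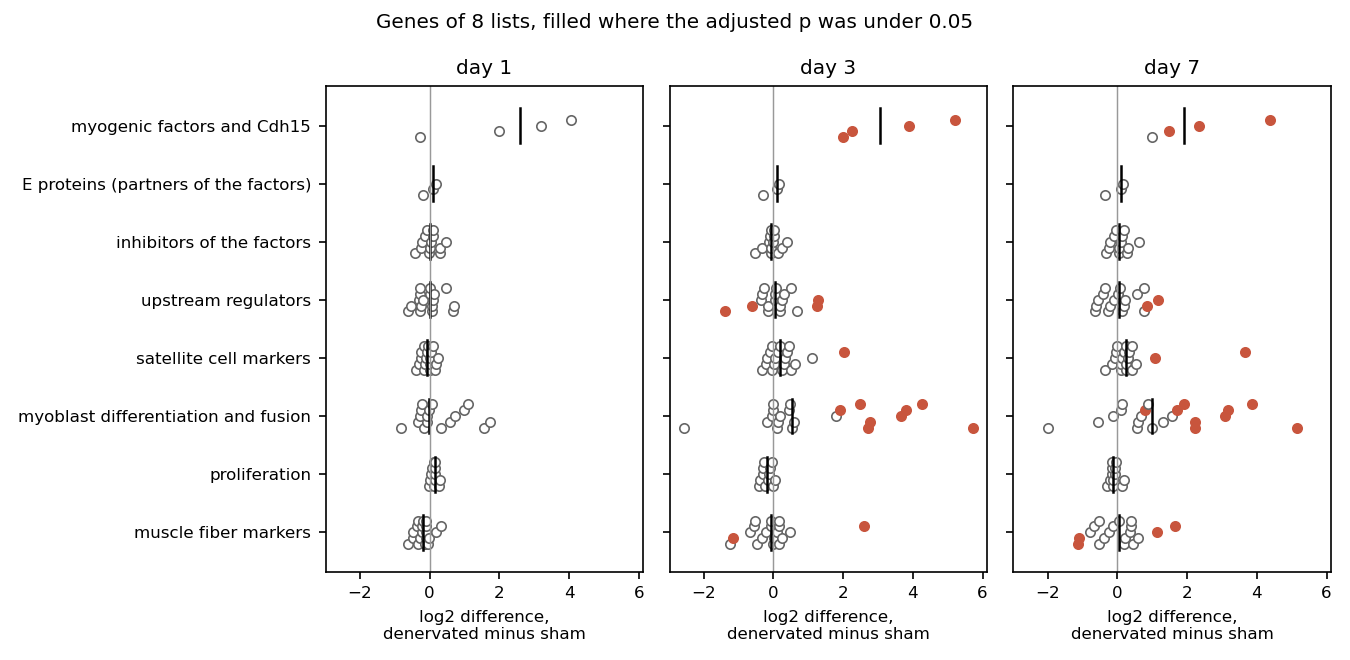
Log2 difference between denervated and sham samples at days 1, 3, and 7 for each tested gene of 8 lists (points, spread vertically to be seen), with the median of a list as a black bar and genes past an adjusted p of 0.05 filled in red. Filled points lie mostly right of 0 among the myogenic factors and among the genes for differentiation and fusion, 8 of 21 at day 3, of which 4 entered the test through the denervated side alone, and 9 of 21 at day 7, of which 1 did.

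Markers of the tissue and of other cell types were read beside these results, and their part in them was not tested. Of 19 muscle fiber markers, 2 were called at day 3 and 4 at day 7. Actn3, a fast-fiber alpha-actinin, rose by 2.61 and 1.64 at days 3 and 7 and Neb, nebulin, by 1.14 at day 7, while Eno3, the muscle enolase, fell by 1.15 and 1.10 and Ckm, creatine kinase, by 1.12 at day 7. The list's summed level was 28900 to 31800 TPM in sham and 28000 to 35000 TPM in denervated samples at day 3, and 42900 to 48200 and 41100 to 46900 TPM at day 7, so the sides overlapped. The 8 immune markers summed to 74.5 to 296 TPM in sham and 1420 to 2740 TPM in denervated samples at day 7. Of these 8, 1 was called by limma then, S100a8, which rose by 4.33 (adjusted p 0.012). Which cells of the skin and muscle biopsy held its transcripts was not tested. At day 3 they summed to 68.9 to 397 and 458 to 1530 TPM with 0 called, and at day 1 to 46.6 to 1000 and 124 to 2010 TPM with 0 called. Without S100a8 and S100a9, the other 6 markers summed to 32.8 to 64.6 TPM in sham and 64.1 to 104 TPM in denervated samples at day 7. Ptprc, the pan-leukocyte marker CD45, was at 4.16 to 6.34 TPM in sham and 4.93 to 10.1 TPM in denervated samples at day 7, and none of the 8 was at 0 in any sample. Of 7 Schwann cell markers, 1 was called, Ngfr, which rose by 1.60 at day 7, and their sums were 504 to 904 TPM in sham and 419 to 437 TPM in denervated samples then. None of 8 keratinocyte, 7 fibroblast, and 6 endothelial and mural markers was called at any day.

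The genes with the most similar pattern were found by Pearson's r of log2(TPM + 0.5) over the 18 samples, which share their groups, muscle content, and depth, so r is a description without a test. For Myog they included Gdf5 (0.97), Pvr (0.97), Gadd45a (0.95), and Chrnd (0.95). For Myod1 they were Klhl30 (0.94), Myog (0.93), Ppp1r27 (0.93), Arpp21 (0.91), and Gdf5 (0.90). For Myf6 they were Smad3 (0.95), Arpp21 (0.94), Alpk2 (0.93), Gprc5c (0.92), and Asb5 (0.92). For Cdh15 they were Fgf13 (0.97), Wfs1 (0.96), Iffo1 (0.96), Nt5dc3 (0.95), and Armcx3 (0.95). For Myf5 the highest r was 0.79 (Mmp19) and for Pax7 it was 0.76 (Dysf). Among the 6 genes themselves, r was 0.93 for Myog with Myod1, 0.90 for Myog with Myf6, 0.83 for Myod1 with Myf6, and 0.77 for Myod1 with Cdh15, and it was at most 0.56 for Pax7 with any other.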

How the data were processed

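RNA sequencing of whisker pad biopsies was analysed in 18 samples from 9 mice. Per the labels and methods, the authors prepared libraries with the TruSeq RNA kit, called bases with bcl2fastq2, removed duplicate reads with ParDRe, trimmed with Fastp, pseudoaligned to Ensembl GRCm38 cDNA with Kallisto 0.43.1, and loaded the results into Sleuth. Signal values, as deposited, are TPM scaled between samples by the authors. The tests had been chosen for plain TPM and were kept. Of 113194 transcripts, 98.46% matched GENCODE M21 by identifier, with 99.48% of the summed values, and TPM were summed by gene.

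Tests used limma 3.58.1 under R 4.3.3 (sides of the face; moderated test, mean-variance trend, pseudocount 0.5), by day, over all days with a term for the day, and between days as contrasts of 6 group means. Genes needed at least 1 TPM in at least 47% of the samples, and p-values were adjusted over all genes tested. The code was tested on simulated data. Depth was estimated from low values of long transcripts, of which 68.2% to 84.3% per sample lay near whole reads, where 20% would by an even spread. Python 3.11.15 served for the rest. Nothing in the labels says more of how the 3 mice of a day were kept, so p-values measure the spread between these samples.

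The 6 genes, the gene lists, and the tests were chosen with earlier results of these data known. Every gene of the 6 was named in all samples. From other lists, up to 4 genes with the largest called difference were named, and per gene the 5 protein-coding genes of highest r. Not every gene so found is reported here. Ptprc and the E proteins are outside that rule and were named as list definitions. Musk, Mymx, Chrnb1, Dok7, and Actc1 are outside it as well and were named to describe the differentiation and fusion list. The 2 sides of a mouse were paired by the mouse number in the titles. Deviations of same-mouse samples from their group means correlated at 0.163 to 0.568 in all 9 mice. The names of the day 7 columns differ from the titles, and those columns were matched by their library number.

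Alternatives covered the pseudocount (0.1 or 1), the filter (any value above 0, or 5 TPM), the scaling (median-of-ratios factors, equal sums, or the muscle fiber markers), a block for the mouse, a fit without the trend, only the most abundant transcript per gene, 1 fit of all 18 samples, and the omission of each mouse.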

Additional observations from a re-analysis of the deposited data

How the results depend on the processing

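Of 1019 values of single genes under the alternatives, 946 kept their direction and their side of the threshold, 36 kept the direction and were no longer called, 10 became called, and 27 turned sign. At day 1 the number of the 6 genes called was 0, against 1 (Myog) with rescaling to the muscle fiber markers, 2 with all 18 samples in 1 fit, and 3 in that fit with the mouse as a block, the last added after the data were seen. Over all genes these settings called 18, 29, and 43, against 0 in the main fit. Leaving out each mouse gave 0 to 3 genes at day 3 and 0 to 2 at day 7, on fits of 4 samples. Of all genes, 7 were called without day 3 mouse 2 and 0 without day 3 mouse 3. Without day 7 mouse 1 and without day 7 mouse 2 they were 1 and 5. The counts of all genes without day 3 mouse 1 and without day 7 mouse 3 are not given here. For the change of the difference from day 1 to day 3, a pseudocount of 1 gave 1 gene (Cdh15), and leaving out each mouse gave 0 to 1. Counted over all genes, that pseudocount gave 24 and leaving out day 1 mouse 1 gave 148, against 18 in the main fit. Leaving out each mouse gave 0 to 1 gene for the denervated side from day 3 to day 7 and 0 to 1 for the sham side from day 1 to day 7. Where the denervated count was 1, 220 of all genes were called, and where the sham count was 0, 0 to 70 were. Rescaling to the muscle fiber markers gave 0 for both sides from day 1 to day 7, and a filter of 5 TPM gave 1 for the denervated side. That rescaling called 8601 of all genes on the denervated side and 58 on the sham side. The filter of 5 TPM called 2590 on the denervated side. With the mouse as a block in the fits of each day, which pairs the sides, the number called was 0, 4, and 3 at days 1, 3, and 7. The counts of all genes called in these paired fits are not given here. In the fit over all days and in the comparisons between days the block changed no call of the 6 genes. In the fit of all 18 samples it added Myf6 at days 1 and 3 and Myod1 at day 7. Over all genes that fit with the block called 43 at day 1, and its counts at days 3 and 7 are not given here.

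All values that turned sign were uncalled. The Cdh15 difference at day 1 was -0.68 to 0.065 without single mice. The Myf6 change of the difference from day 1 to day 3 was -0.0077 with a pseudocount of 0.1, -0.0094 with median-of-ratios scaling, -0.074 with equal sums, -0.043 with rescaling to the muscle fiber markers, and -0.26 to 0.26 without single mice, and that of Myog from day 1 to day 7 was -0.11 with that rescaling. With that rescaling the denervated side gave -0.20, -0.13, and -0.33 for Myf6 (day 1 to 3, day 3 to 7, and day 1 to 7) and -0.95 for Myod1 (day 1 to 7). The sham side gave -0.15, -0.35, and -0.50 for Myf6 and -0.22, -0.059, and -0.27 for Cdh15 in the same order. Without single mice the change from day 1 to day 3 was -0.25 to 0.89 for Myf6 on both sides (the lowest without day 1 mouse 1) and -0.35 to 0.54 for sham Cdh15, the sham Myf6 change from day 1 to day 7 was -0.0063 to 1.13, and sham Myog from day 3 to day 7 was -0.30 to 0.31, against 0.0086 with median-of-ratios scaling. The cause was not tested. Pax7 and Myf5 rest on 4 to 36 and 8 to 61 reads per sample.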
